A study of Mus musculus with 10 samples.

Results

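Colonic organoids without Pparg in the epithelium were compared with wild-type organoids after 24 hours in vehicle alone, that is, without an added PPARγ ligand. Every array whose labels gave vehicle treatment was taken, which gave 4 of the 10 arrays of the series: 2 of knockout organoids, from mice 46 and 44, and 2 of wild-type organoids, from mice 42 and 47. The knockout mice were homozygous for a Pparg allele whose exons 1 and 2 lie between loxP sites and carried Cre under the villin promoter, which is active in epithelial cells of the intestine. The wild-type mice were littermates. All were male and on a C57BL/6J background, and no age is given in the sources used here. Colon crypts were grown in Matrigel in a medium with Wnt, Noggin, R-spondin, EGF, N-acetylcysteine, nicotinamide and inhibitors, and both groups received 0.1% DMSO. The other 6 arrays, 3 per genotype, came from organoids given 1 µM rosiglitazone, a PPARγ agonist. They include the same 4 animals and also mice 45 (knockout) and 48 (wild type), which have no vehicle array here. Each animal gave 1 array per treatment, so n = 2 animals per genotype throughout the vehicle comparison. Levels are RMA log2 values, which also depend on each probe set's own probes, so genotypes are compared within a gene.

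PPARγ is a nuclear receptor that binds DNA together with RXR and is activated by fatty acids, eicosanoids and thiazolidinedione drugs. In fat cells it drives lipid storage, and in the colon it is abundant in surface epithelium, where it is known for roles in lipid handling, differentiation and defence. The vehicle comparison asks what the loss of the receptor changes when no drug is added.

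Under vehicle, knockout organoids read higher for Mt1, a metal-binding metallothionein, and lower for the gasdermin Gsdmc2, the cytochrome P450 genes Cyp2c65 and Cyp2c55, the apolipoprotein L gene Apol10a, the prostaglandin E synthase Ptges and the sodium-proton exchanger Slc9a3. No gene passed the test at this number of animals. Of 23099 annotated probe sets, 0 reached an adjusted p under 0.05 in limma (percent called 0%), 1314 (5.69%) had an unadjusted p under 0.05, and the smallest adjusted p was 0.0601, for Mt1. The same fit in the rosiglitazone arrays called 5 probe sets (0.0216%), and 1110 (4.81%) had a p under 0.05 before adjustment. Of the calls, Mt1 rose, 1 higher call (0.00433%), and Cyp2c65, 1810065E05Rik, Arl14 and Adhfe1 fell, 4 lower calls (0.0173%). The vehicle differences below are therefore sizes with their standard errors (SE), and none is a call. Mt1 passed the test in 7 of 20 alternative analyses, with an adjusted p between 0.00236 and 0.604. Without the rosiglitazone array of wild-type mouse 48, which enters the shared spread, 6 probe sets were called under vehicle: Mt1 and Rasgrf2 higher, and 1810065E05Rik, Slc9a3, Apol10a and Cyp2c65 lower.

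Before the results, 1 animal stood apart. The arrays of knockout mouse 46 lay at -39.3 (vehicle) and -31.8 (rosiglitazone) on the first principal component of the 10 arrays, which held 27.4% of the variance, and the other 8 arrays lay between -4.10 and 19.6. The vehicle arrays of mice 46 and 44 differed by 1 log2 unit or more at 540 probe sets, the wild-type arrays at 127, and the means of the genotypes at 175. With both arrays of mouse 46 left out, 0 probe sets were called and 1430 had an unadjusted p under 0.05. Over 15 measured epithelial identity genes the mean level of the 4 arrays was 9.46 to 9.77, with Epcam among them at 10.50 to 11.05. For defining genes of other cells the levels were as follows: Ptprc, on all white blood cells, at 2.39 to 2.79, Pecam1, of endothelium, at 2.23 to 2.46, Col1a1, of fibroblasts, at 3.85 to 4.56, and Krt5, of squamous epithelium, at 2.90 to 3.04. The chloride exchanger gene Slc26a3, a colonocyte marker, was at 2.26 to 2.83.

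Pparg itself had levels of 8.58 and 8.47 in the knockout arrays and 8.35 and 8.41 in the wild-type arrays. The knockout values were the higher ones, by 0.14 ± 0.38 (SE) (adjusted p = 0.96). Where this probe set lies relative to the deleted exons is not known here, so it checks neither the deletion nor the labels, and every direction rests on the labels. The partner and sister receptors differed little: Rxra differed by -0.21 ± 0.19, Ppard by 0.10 ± 0.16 and Ppara by -0.10 ± 0.24. Ppara was dim, meaning that both group means lay below 4.51, the median over all tested probe sets, a description of the probe set's signal and not of the gene's abundance. Over 16 measured receptors and coactivators, 10 read higher and 6 lower, with a median difference of 0.058 beside 0.030 over all 18820 genes.

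Genes whose 2 knockout values lay wholly on one side of the wild-type values were common: 4387 of 18820 were higher (23.3%) and 3042 lower (16.2%). With 2 arrays against 2, such an order is also frequent where groups do not differ. A lack of overlap alone is therefore weak evidence for any 1 gene. Of the genes without overlap, 30 were higher by 1 log2 unit or more (0.159% of all genes) and 90 were lower by as much (0.478%). Measured from each knockout mouse alone against the wild-type mean, 17 of the 30 and 44 of the 90 passed 1 log2 unit in both. From mouse 44 alone the counts were 21 and 50, and from mouse 46 alone 26 and 84.

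**Figure D1:**
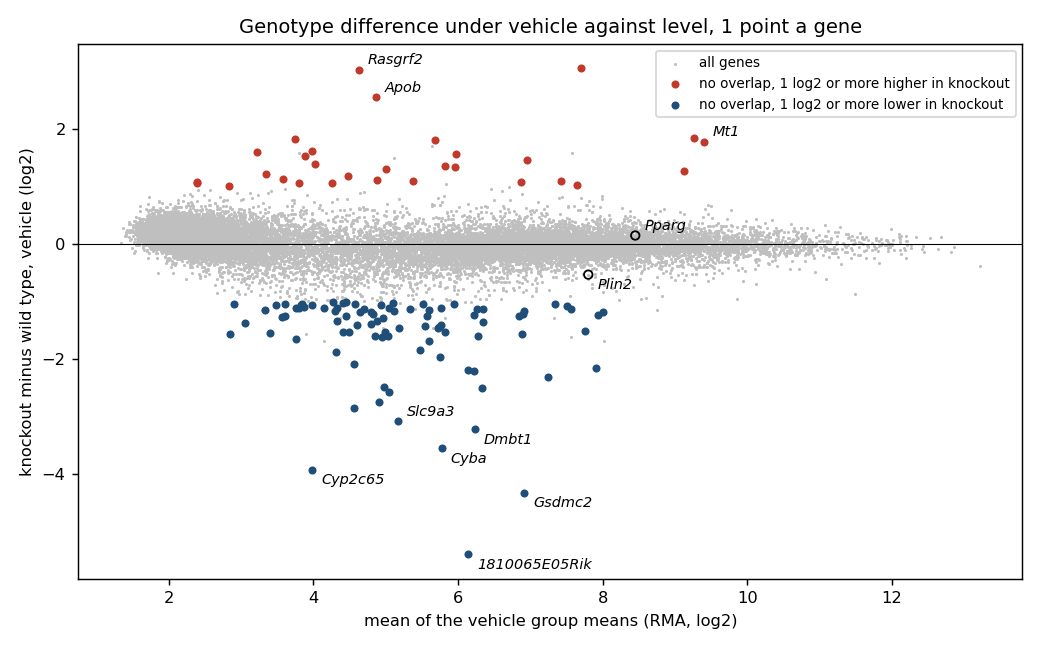
Mean of the vehicle group means (x axis, RMA log2) against the knockout minus wild-type difference (y axis, log2), 1 point for each of 18820 genes. The 90 genes lower by 1 log2 unit or more without overlap (blue) reach -5.39 at 1810065E05Rik, the 30 higher ones (red) include Rasgrf2 and Mt1, and Pparg and the lipid droplet gene Plin2 (open circles) lie within 1 log2 unit of 0.

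Sequences upstream of the neighbouring metallothionein genes on chromosome 8 and the neighbouring Cyp2c genes on chromosome 19 are shown because within 1 pair the genes differed between genotypes to unlike extents and within the other both read lower. The window of each gene is the 250 bases before the start that the RefSeq promoter table gives on GRCm38.p6. It is shown up to the base before the annotated gene, which begins inside the window for Mt1 (44 bases shown) and Cyp2c55 (171 bases shown), and is written 5′ to 3′ along the gene, with matches on either strand to the metal response element cores TGCACNC and TGCGCNC, which the zinc-sensing factor MTF1 binds, in capitals.
Mt1 (chr8:94178839-94178882, plus strand): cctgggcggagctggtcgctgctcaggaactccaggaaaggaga
Mt2 (chr8:94172368-94172617, plus strand): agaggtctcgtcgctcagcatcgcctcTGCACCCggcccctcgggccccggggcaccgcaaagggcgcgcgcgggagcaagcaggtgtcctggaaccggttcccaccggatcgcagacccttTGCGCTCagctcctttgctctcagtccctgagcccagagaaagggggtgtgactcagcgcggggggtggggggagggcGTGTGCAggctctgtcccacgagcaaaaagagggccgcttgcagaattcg
Cyp2c65 (chr19:39060756-39061005, plus strand): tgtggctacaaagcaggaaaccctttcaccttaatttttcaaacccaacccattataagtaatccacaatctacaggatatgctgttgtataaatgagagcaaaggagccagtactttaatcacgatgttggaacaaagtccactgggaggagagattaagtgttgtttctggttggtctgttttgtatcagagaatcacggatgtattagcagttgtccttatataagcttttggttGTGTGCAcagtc
Cyp2c55 (chr19:39006769-39006939, plus strand): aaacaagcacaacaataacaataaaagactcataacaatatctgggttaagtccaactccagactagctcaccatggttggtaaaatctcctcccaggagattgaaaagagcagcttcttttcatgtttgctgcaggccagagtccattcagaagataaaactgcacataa
Over the whole 250 bases the Mt1 window holds 1 match to TGCACNC, which lies in the bases not shown, the Mt2 window 2 matches to TGCACNC and 1 to TGCGCNC, and the Cyp2c65 window 1 match to TGCACNC. Of 32841 such mouse windows 10.4% hold TGCACNC and 12.5% hold TGCGCNC. The nuclear receptor half-site AGGTCA, found in 14% of the windows, and the PPAR-RXR element AGGTCANAGGTCA, found in 0.0335%, have no match in these 4 windows. A match or its absence describes these letters in this window only.

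Mt1 encodes a small cysteine-rich protein that binds zinc and copper. Its levels were 10.48 and 10.10 in knockout and 8.73 and 8.30 in wild-type arrays. Both knockout values exceeded both wild-type values, a difference of 1.77 ± 0.19 or 3.42-fold (adjusted p = 0.0601), and from mouse 44 alone it was 1.58. Mt2, the neighbouring metallothionein gene, read 8.15 and 9.17 in knockout and 9.55 and 8.91 in wild type. Its groups overlapped, and it differed by -0.57 ± 0.69 (adjusted p = 0.91). The zinc importer Slc39a4 read 10.90 and 10.66 against 11.33 and 11.47, lower by 0.62 ± 0.22 (adjusted p = 0.85). Of 24 measured metallothionein and zinc transport genes, 7 read higher and 17 lower, with a median of -0.088, and Mt1 (higher) and Slc39a4 (lower) were the 2 with an unadjusted p under 0.05, beside 3.18% of all genes higher and 2.70% lower at that level.

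Among genes that read lower, the largest difference was at 1810065E05Rik, an uncharacterised gene on chromosome 11 that is named after its values were seen. Its levels were 3.28 and 3.61 in knockout and 8.58 and 9.10 in wild type, a difference of -5.39 ± 0.79 (adjusted p = 0.21). The wild-type arrays were far above both knockout arrays. Arl14, another gene called in the rosiglitazone arrays, read 5.15 and 4.83 against 5.87 and 5.86 and differed by -0.87 ± 0.24. Adhfe1, the remaining one, overlapped under vehicle and differed by -0.19 ± 0.16.

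Gsdmc2 belongs to a cluster of gasdermin C genes, whose proteins can form membrane pores after cleavage. It read 4.20 and 5.30 in knockout and 9.50 and 8.65 in wild type, without overlap, and differed by -4.32 ± 0.68, a 20-fold lower level (adjusted p = 0.21). Its probes may also read near-identical copies in the cluster, which was not tested, so the signal is uncertain between them. The pseudogene Gsdmcl-ps differed by -2.86 ± 0.54 (adjusted p = 0.42) and the dim Gsdmc by -0.71 ± 0.20, both without overlap. Gsdmd, a gasdermin outside the cluster that acts in pyroptosis, overlapped and differed by -0.07 ± 0.27. Of 8 measured gasdermin entries 4 read higher and 4 lower.

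Cyp2c65 and Cyp2c55 encode cytochrome P450 enzymes that oxidise arachidonic acid and other fatty acids. Cyp2c65 read 2.14 and 1.91 in knockout and 5.74 and 6.16 in wild type, a difference of -3.92 ± 0.61 (adjusted p = 0.21). Cyp2c55 read 6.76 and 5.44 against 8.19 and 8.62, a difference of -2.31 ± 0.55 (adjusted p = 0.79). For both genes the knockout values lay below the wild-type values. Cyp2c66, from the same family, was dim and overlapped, at 2.73 and 3.36 against 2.48 and 4.25. Of 13 measured family members 9 read higher and 4 lower, and 11 were dim.

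**Figure D2:**
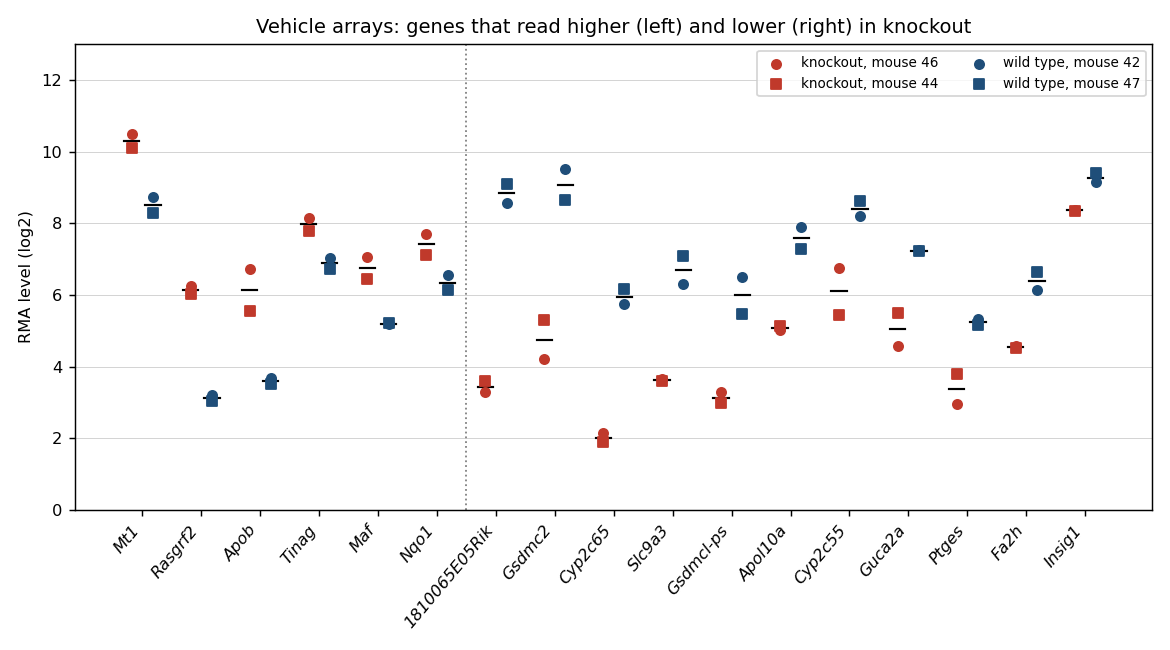
RMA level (y axis, log2) of 17 genes in the 4 vehicle arrays, with knockout in red, wild type in blue, 1 symbol per mouse and a bar at the group mean. Left of the dotted line every knockout array lies above the wild-type arrays, as for Mt1, and right of it below them, as for Gsdmc2 and Cyp2c65.

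The other leading genes that read lower had varied roles. Apol10a, of the apolipoprotein L family, read 5.02 and 5.13 in knockout and 7.88 and 7.28 in wild type. Both knockout values lay below both wild-type values, and the difference was -2.51 ± 0.30 (adjusted p = 0.0773). Ptges, which makes prostaglandin E2 from its precursor, read 2.96 and 3.80 against 5.34 and 5.17, a difference of -1.88 ± 0.28 (adjusted p = 0.21). Hpgd, which degrades prostaglandin E2, read 7.15 and 7.47 against 8.29 and 8.82 and differed by -1.24 ± 0.41. Both lay below wild type without overlap. Of 25 measured prostaglandin genes, 11 read higher and 14 lower, 3 of the lower ones with an unadjusted p under 0.05 beside 2.70% of all genes. Fa2h, which adds a hydroxyl group to fatty acids, differed by -1.84 ± 0.37 and Insig1, a sterol-responsive brake on cholesterol synthesis, by -0.91 ± 0.19. The forkhead factor Foxd2 differed by -1.44 ± 0.26, the guidance ligand Sema3f by -1.24 ± 0.23 and lactotransferrin, Ltf, an iron-binding defence protein, by -1.05 ± 0.23. Their adjusted p lay between 0.36 and 0.66. Triqk, Tnfrsf18, Mrpl22 and St6galnac6 complete the 15 leading lower genes, a set that leaves out predicted models and Rik genes such as 1810065E05Rik, with differences from -0.87 to -1.66.

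Of the 15 leading genes that read higher, 10 were dim, against 1 of the 15 lower ones and 9213 of all 18820 genes (49%). The bright ones were Mt1, Rasgrf2, Apob, Zcchc10 and Tinag. Rasgrf2, an exchange factor for Ras, read 6.26 and 6.03 in knockout and 3.20 and 3.03 in wild type, a difference of 3.02 ± 0.61 (adjusted p = 0.53). Apob, the structural protein of chylomicrons, read 6.72 and 5.56 against 3.67 and 3.53, a difference of 2.54 ± 0.49 (adjusted p = 0.42). Neither gene overlapped between genotypes. Tinag, a basement membrane protein, differed by 1.09 ± 0.25 and Zcchc10 by 0.69 ± 0.15. The dim ones were Wfdc6a, Cytip, Alox5ap, Nefm, Tuba3b, Dlx3, Myrfl, Ripply2, Tagap and Slc25a2, with differences of 0.59 to 1.59, the largest at Myrfl. Maf, a leucine zipper transcription factor, read 7.06 and 6.45 against 5.18 and 5.22 and differed by 1.55 ± 0.42 (adjusted p = 0.85).

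Apical ion transport genes of the colonocyte, the absorptive surface cell, included several of the largest differences. Slc9a3, which exchanges sodium for protons at the apical membrane, read 3.66 and 3.59 in knockout and 6.31 and 7.10 in wild type. All values of the groups lay apart, with a difference of -3.08 ± 0.53 (adjusted p = 0.36). Slc9a2, a related exchanger, read 4.47 and 5.09 against 6.60 and 6.87 and differed by -1.96 ± 0.50 (adjusted p = 0.85). Guca2a, the peptide guanylin that activates guanylate cyclase C, read 4.58 and 5.50 against 7.25 and 7.22 and differed by -2.19 ± 0.52 (adjusted p = 0.79). Both again lay below wild type in both knockout arrays. Uroguanylin, Guca2b, differed by -0.95 ± 0.42, the carbonic anhydrase Car1 by -0.87 ± 0.25 and the proton pump Atp12a by -0.62 ± 0.21. Clca4b, of the calcium-activated chloride channel regulators, read 6.81 and 7.06 against 5.99 and 5.98, higher by 0.94 ± 0.37. Of 47 measured colonocyte genes 14 read higher and 33 lower. Of the lower ones 8, and of the higher ones 1, had an unadjusted p under 0.05, beside 2.70% and 3.18% of all genes. By 1 log2 unit or more without overlap, 6 were lower and 0 higher, beside 0.478% and 0.159% of all genes. The list's median was -0.11, and -0.17 with mouse 44 as the only knockout. Slc9a3 and Guca2a differed less between genotypes in the rosiglitazone arrays, by -0.57 ± 0.44 and 0.32 ± 0.42. Those arrays add knockout mouse 45 and wild-type mouse 48, which have no vehicle array. Both genes read higher in mouse 45 than in mouse 48, so the change mixes the drug with added animals. The test of that change gave 2.51 ± 0.69 and 2.52 ± 0.67, each with an adjusted p of 0.9999 over 23099 probe sets. It did not pair the arrays that came from the same mouse.

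Part of the epithelial defence genes read lower. Dmbt1, a scavenger receptor glycoprotein that binds bacteria, read 4.60 and 4.64 in knockout and 7.73 and 7.95 in wild type, a difference of -3.22 ± 1.09 (adjusted p = 0.85). Cyba, a subunit of NADPH oxidases, read 2.95 and 5.05 against 7.38 and 7.72, and Pigr, which carries IgA across the epithelium, read 6.03 and 7.62 against 8.98 and 8.99. The knockout arrays were the lower ones for all 3, and those of Cyba and Pigr also differed between mice 46 and 44 by more than 1 log2 unit. Duox2, which makes hydrogen peroxide at the apical surface, differed by -1.53 ± 0.46 and its maturation factor Duoxa2 by -1.11 ± 0.47. Tlr2, a receptor for bacterial lipoproteins, differed by -0.72 ± 0.23. Of 42 measured defence genes 13 read higher and 29 lower, with 1 and 8 at an unadjusted p under 0.05, beside 3.18% and 2.70% of all genes. The median was -0.12, with -0.31 from mouse 46 and -0.11 from mouse 44. In mouse 45, a knockout animal outside the vehicle comparison, Dmbt1 read 7.73, Cyba 7.26 and Pigr 9.82 under rosiglitazone, all above the wild-type mouse 48 at 5.14, 5.62 and 7.26.

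Antigen presentation and interferon genes as a list gave no common direction. Psmb9 and Psmb8, subunits of the immunoproteasome, differed by -0.82 ± 0.20 and -0.93 ± 0.39, the transcription factor Irf8 by -1.14 ± 0.33 and the antiviral Oas1a by -0.66 ± 0.28, each without overlap and with adjusted p from 0.79 to 0.86. Of 49 measured members 21 read higher and 28 lower, with 0 and 4 at an unadjusted p under 0.05, beside 3.18% and 2.70% of all genes. The median was -0.20 from mouse 46 and 0.15 from mouse 44.

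The 4 mucus genes of goblet cells given here, named after their values were seen, separated 1 mouse rather than the genotypes. Agr2, which folds mucins, read 3.42 in mouse 46, 6.43 in mouse 44 and 6.37 and 6.41 in wild type. Muc2, the main mucin of colonic mucus, read 3.71 and 5.60 against 6.15 and 5.03. Clca1 and Zg16, secreted into mucus, read 3.63 and 4.67 in mouse 46 and 6.72 and 6.52 in mouse 44, beside 6.05 to 6.88 and 6.03 to 7.16 in wild type. For all 4 genes mouse 46 was lowest, and mouse 44 differed from the wild-type mean by -0.081 to 0.25. Of 40 measured goblet genes 16 read higher and 24 lower, and 24 were dim. At an unadjusted p under 0.05 in limma 0 were higher and 1 lower, beside 3.18% and 2.70% of all genes. By 1 log2 unit or more without overlap 1 goblet gene was lower, beside 0.478% of all genes. The list's median was -0.20 from mouse 46 and 0.035 from mouse 44. In bulk organoid RNA, fewer cells of a type and less RNA per cell cannot be told apart. Mouse 45 had 8.85 for Agr2 and 8.47 for Muc2 under rosiglitazone, the highest of the 10 arrays.

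**Figure D3:**
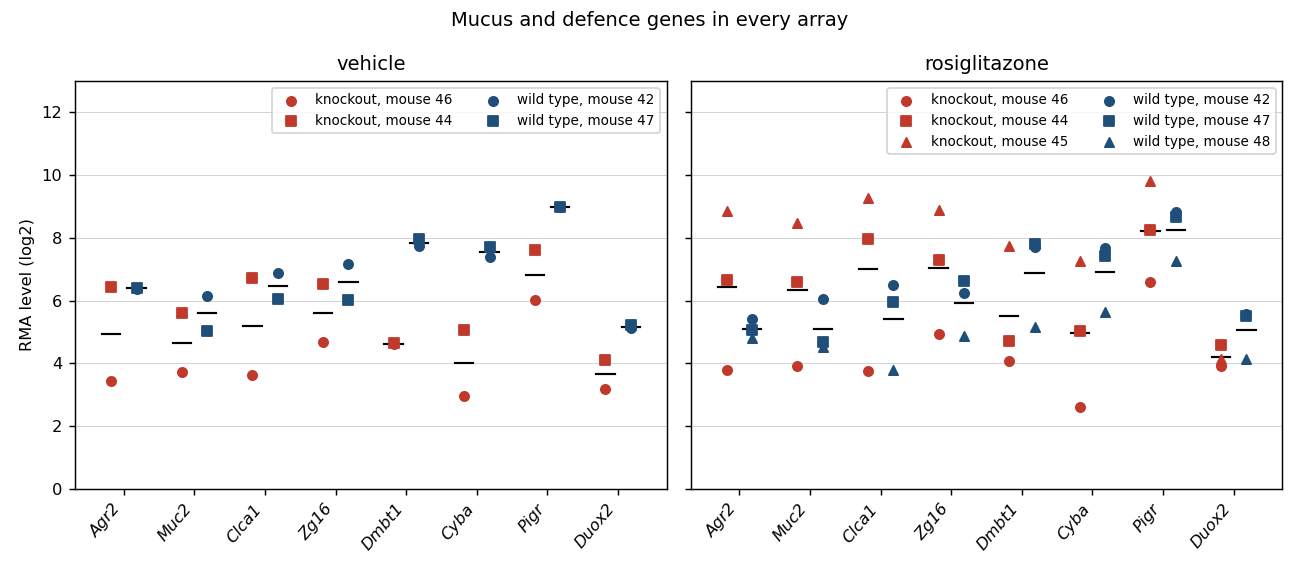
RMA level (y axis, log2) of 4 mucus and 4 defence genes in the 4 vehicle arrays (left) and the 6 rosiglitazone arrays (right), with knockout in red, wild type in blue, 1 symbol per mouse and a bar at the group mean. Knockout mouse 46 reads lowest for Agr2, Muc2, Clca1 and Zg16 under vehicle, and knockout mouse 45 highest under rosiglitazone.

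PPAR target genes as a list gave no common direction without added ligand. Plin2, a coat protein of lipid droplets, read 7.61 and 7.46 in knockout and 8.00 and 8.14 in wild type. Both knockout values were below both wild-type values, and the difference was -0.54 ± 0.25 (adjusted p = 0.86). Angptl4, an inhibitor of lipoprotein lipase, was dim, read 2.92 and 3.50 against 3.44 and 3.52 and differed by -0.27 ± 0.81. Pdk4, which limits glucose oxidation, was dim and differed by 0.11 ± 0.47, and the droplet protein Cidec by -0.36 ± 0.51. All 3 overlapped between genotypes. Cpt1a, which admits fatty acids to mitochondria, differed by -0.21 ± 0.20. Fabp1, Fabp4 and Cd36, which bind or take up fatty acids, and Acaa1b, a peroxisomal thiolase, were dim and differed by 0.11 to 0.40. Of 59 measured targets 29 read higher and 30 lower, with a median of -0.043, and 24 were dim. Both targets with an unadjusted p under 0.05 read lower, 2 of 59 beside 2.70% of all genes. They were Gpd1, of glycerol phosphate synthesis, at 3.65 and 4.83 against 5.79 and 5.88, lower by 1.59 ± 0.56, and Retsat, a retinol saturase, lower by 0.66 ± 0.27. Their adjusted p was 0.85 and 0.86.

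Under rosiglitazone the genotype difference of the same targets was -0.90 ± 0.21 for Plin2, -1.34 ± 0.42 for Cidec, -1.07 ± 0.39 for Pdk4 and -0.85 ± 0.66 for Angptl4. Each was lower than under vehicle, and the test of that change gave no call, with changes of -0.37 ± 0.33, -0.97 ± 0.66, -1.19 ± 0.61 and -0.57 ± 1.05. Here too the change mixes the drug with added animals, since mice 45 and 48 have no vehicle array. Over all probe sets that test called 0, with 536 (2.32%) at an unadjusted p under 0.05, in limma.

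Genes of energy metabolism differed little, though many on the same side. Of 55 measured genes of oxidative phosphorylation, the respiratory chain and ATP synthase of mitochondria, 48 read lower and 7 higher. Their median was -0.12 (-0.086 from mouse 46, -0.15 from mouse 44), beside 0.030 over all genes, and none had an unadjusted p under 0.05. Of 27 genes of fatty acid oxidation and ketone synthesis 21 read lower and 6 higher, with a median of -0.19 (-0.059 from mouse 46, -0.21 from mouse 44) and again none at that level. Under rosiglitazone the medians of these lists were -0.021 and -0.095, and between mice 45 and 48 they lay on the other side, at 0.20 and 0.17. Of 42 peroxisome genes 28 read lower and 14 higher, with a median of -0.062. Cholesterol synthesis (8 higher, 13 lower), fatty acid synthesis (13 and 11) and glycolysis (18 and 15) had medians within 0.02 of 0. None of the 55 oxidative phosphorylation genes was dim, against 49% of all genes. Other mostly bright lists lay below 0, as fatty acid oxidation (-0.19), epithelial identity (-0.086), peroxisome (-0.062) and cell cycle genes (-0.054). Some lay above 0, as fetal and repair epithelium (0.083), ER folding (0.071) and glycolysis (0.012). Among mostly dim lists, neural (0.21), endothelium (0.11) and immune genes (0.078) lay above 0. Defence (-0.12) and goblet genes (-0.064), also mostly dim, lay below 0. Whether brightness plays a part was not tested. Members of a pathway share arrays and animals and are not independent.

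**Figure D4:**
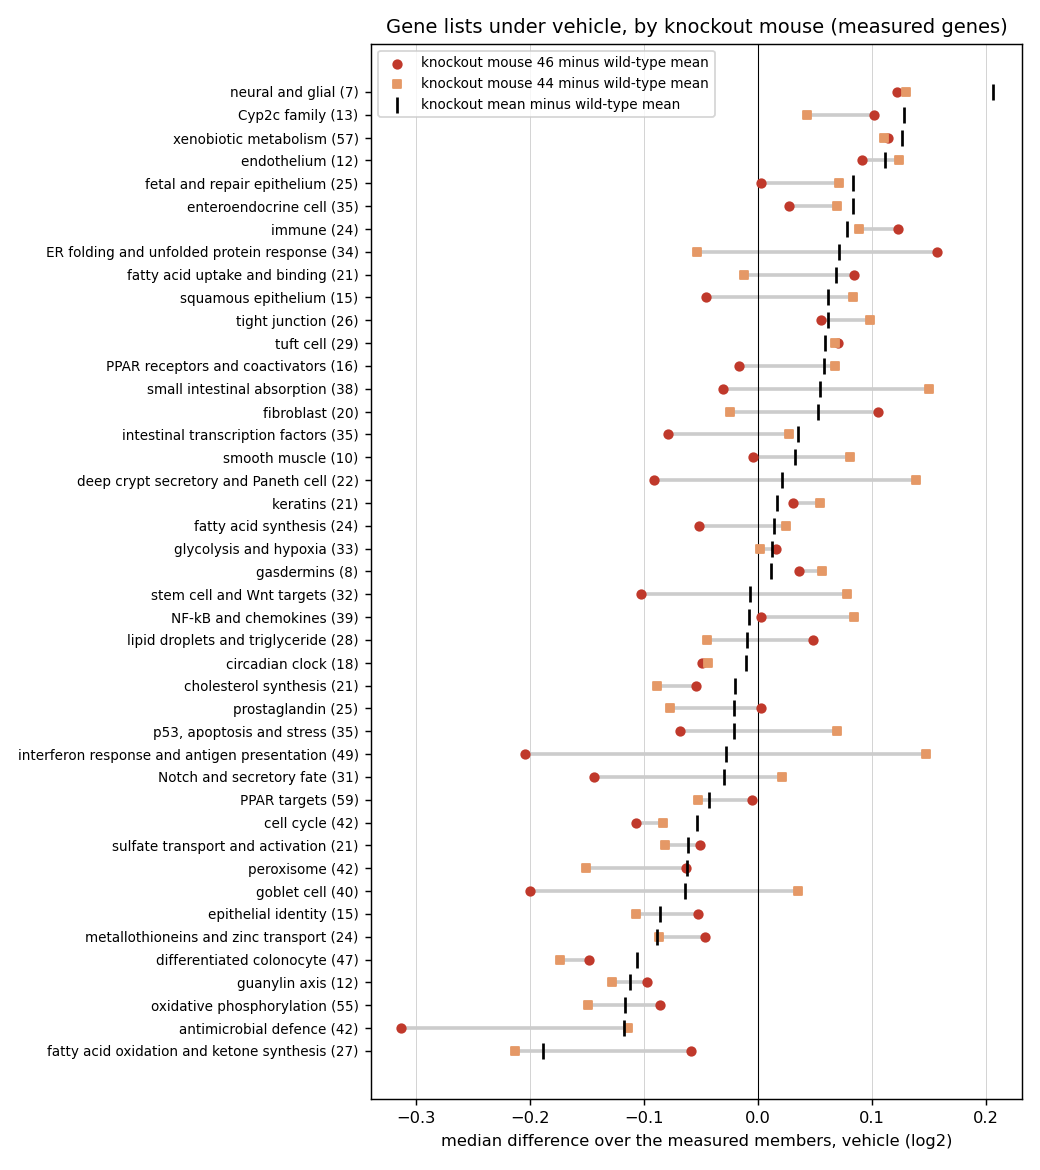
Median difference over the measured members of each of 43 gene lists under vehicle (x axis, log2), from knockout mouse 46 (red), knockout mouse 44 (orange) and the knockout mean (black bar), each minus the wild-type mean. Medians are taken separately, so a bar can lie outside both points. Both mice lie below 0 for oxidative phosphorylation, colonocyte and defence genes, and on opposite sides of 0 for goblet and interferon genes.

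Detoxification genes read higher more often than lower. Nqo1, a quinone reductase and classic target of the oxidant-sensing factor NRF2, read 7.70 and 7.13 in knockout and 6.55 and 6.14 in wild type, higher by 1.07 ± 0.35 without overlap (adjusted p = 0.85). Slc7a11, which imports cystine for glutathione, read 8.04 and 7.31 against 6.06 and 6.38, higher by 1.45 ± 0.50 (adjusted p = 0.85). Of 57 measured xenobiotic genes 35 read higher and 22 lower, and 20 were dim. Of these, 6 and 3 had an unadjusted p under 0.05, beside 3.18% and 2.70% of all genes. The median was 0.13, beside 0.030 over all genes, and under rosiglitazone it was 0.041. Between mice 45 and 48 it was -0.13. Over 20 alternatives the median ran from -0.040 to 0.13 and turned in sign in 1.

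Medians of cell cycle and stem cell genes lay near 0. Of 42 cell cycle genes 15 read higher and 27 lower, with a median of -0.054, and Mcm3, a subunit of the replicative helicase, differed by -0.39 ± 0.17. Of 32 stem cell and Wnt target genes 15 read higher and 17 lower. Lgr5, the receptor that marks crypt stem cells, read 8.71 and 9.56 against 9.19 and 9.19, with overlap. The Notch receptor Notch3 differed by -0.70 ± 0.17 and clusterin, Clu, a marker of regenerating epithelium, by -0.59 ± 0.18, both without overlap (adjusted p = 0.80 and 0.85).

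Markers of other cell types were mostly dim: 17 of 20 for fibroblasts, 8 of 10 for smooth muscle, 23 of 24 for immune cells, 12 of 12 for endothelium, 7 of 7 for neural cells and 12 of 15 for squamous epithelium. Immune medians were 0.12 from mouse 46 and 0.088 from mouse 44, and the summed linear levels of the immune list were 293 and 342 in knockout and 466 and 451 in wild type. Cd68, a lysosomal gene of macrophages that epithelial cells also express, was the bright exception, at 7.38 and 7.79 against 8.45 and 8.38. Linear sums weigh bright genes most, so the lower immune sums in knockout largely reflect Cd68, while both immune medians lay above 0. The fibroblast sums were 565 and 1010 against 791 and 576, with overlap. Their part in any difference above was not tested.

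Genes beside Pparg on chromosome 6 were read as a group of their own. Of 31 measured among the 20 coding genes on each side, 0 read higher and 4 lower at an unadjusted p under 0.05, beside 3.18% and 2.70% of all genes. The 4 were Tamm41, Vhl, Tmcc1 and Alox5. Their differences were -0.61, -0.51, -0.43 and -0.92, and the median of the 31 was -0.067. Under rosiglitazone the differences of Tamm41, Vhl and Tmcc1 were 0.028, 0.038 and -0.037, and between mice 45 and 48 they lay on the other side, at 0.42, 0.24 and 0.35. Alox5 differed by -0.74 and -0.97.

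The same genes were then read in the rosiglitazone arrays. These did not enter the vehicle means but did enter the shared spread that set the p by which the leading genes were ranked, so the counts of leading genes are a description and not an independent check. The rosiglitazone arrays share 4 animals with the vehicle comparison. There 11 of the 15 leading higher genes and 14 of the 15 leading lower genes lay on the same side. The share of all genes on the same side in these arrays was not counted, so both counts stand without a background. Of these genes 8 and 11 were without overlap, beside 797 (4.23%) and 897 (4.77%) of all genes in each direction. In mice 45 and 48, which gave no vehicle array, 9 of the 15 higher and 12 of the 15 lower genes lay on the same side, beside 7529 of all 18820 genes (40%). Of the 30 genes higher by 1 log2 unit or more without overlap, a rule that uses the vehicle arrays alone, 15 were on the same side (50%), and of the 90 lower genes 47 (52.2%). These 2 animals give 1 difference per gene, with no replicate.

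Single genes kept their size to different degrees in mice 45 and 48. Mt1 read 10.62 in mouse 45 and 8.48 in mouse 48, a difference of 2.15. The differences of 1810065E05Rik, Cyp2c65 and Gsdmc2 were -4.13, -2.85 and -2.79. Those of Ptges and Apol10a were -1.44 and -1.17. All 6 lay on the same side as under vehicle. Rasgrf2 read 5.66 in mouse 45 and 5.45 in mouse 48, so that this wild-type animal was close to the knockout arrays. Slc9a3 and Guca2a lay on the other side, higher in mouse 45 by 0.73 and 1.77.

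**Figure D5:**
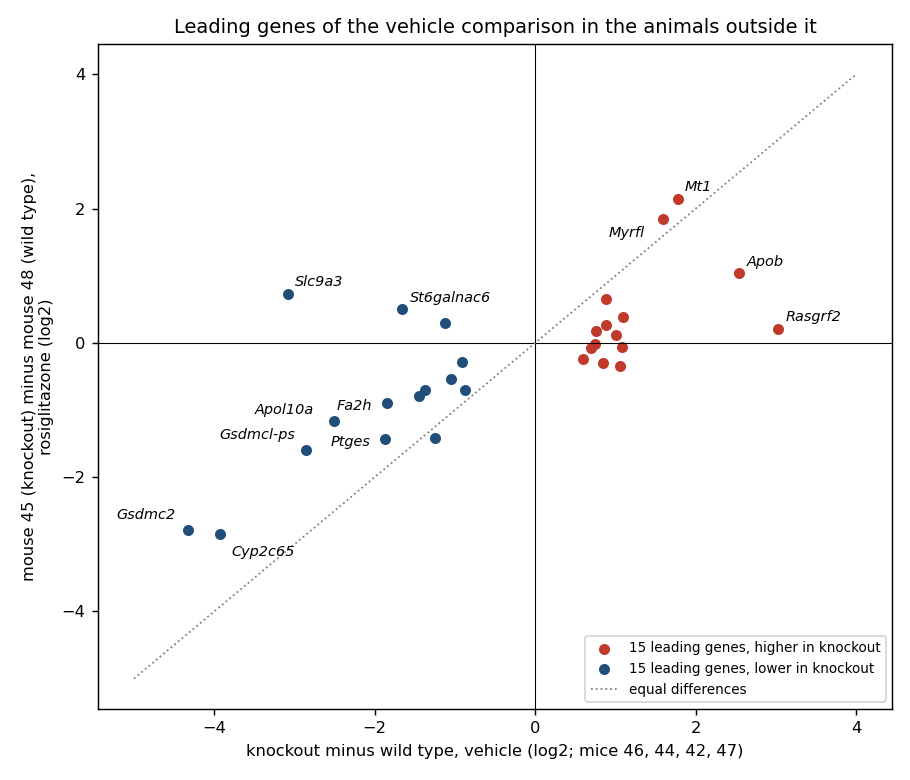
Knockout minus wild-type difference under vehicle (x axis, log2, mice 46, 44, 42 and 47) against the difference between knockout mouse 45 and wild-type mouse 48 under rosiglitazone (y axis, log2) for the 15 leading genes in each direction. Of the higher genes 9 and of the lower genes 12 fall on the same side of 0 on both axes, Slc9a3 does not, and the dotted line marks equal differences.

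At 136 genes (0.723%) the groups lay apart in both treatments but in opposite directions. Over all 10 arrays, every knockout array exceeded every wild-type array at 178 genes (0.946%) and lay below at 209 (1.11%). By this rule the 178 and 209 all lie within the 4387 and 3042 genes without overlap under vehicle. The 30 and 90 genes with a vehicle difference of 1 log2 unit or more were chosen for that same lack of overlap. Their counts are thus no independent check. Of the 30 higher genes 8, and of the 90 lower genes 20, were separated in all 10 arrays. The higher ones were Rasgrf2, Apob, Mt1, Myrfl, Vip, Ugt2b35, Tinag and Nefm. The lower ones included 1810065E05Rik, Gsdmc2, Gsdmcl-ps, Cyp2c65, Cyp2c55, Apol10a, Apol7a, Ptges, Fa2h, the steroid dehydrogenase Hsd3b3, the desaturase-related Fads3 and the leukaemia inhibitory factor receptor Lifr. Hsd3b3 read 3.24 and 3.81 against 5.00 and 6.21 under vehicle, a difference of -2.08 ± 0.68.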

How the data were processed

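Affymetrix whole-transcript arrays were hybridised with RNA from colonic organoids, 10 arrays in 4 groups. The values are the log2 levels that the authors deposited for 35556 probe sets. They were made with RMA, per the submitters' processing notes, which corrects background, quantile-normalizes the arrays and summarises probes. Its version is not given in the sources used here. Arrays carry no read depth, and their number limits the precision. Of the probe sets, 23099 are annotated, 21218 with 1 symbol, 1881 with several, which are not named, and 12457 were left out. Of those with 1 symbol, 21185 matched RefSeq by Entrez ID. They cover 18820 genes, and for 1386 genes with several probe sets the one with the highest mean over the 10 arrays stands for the gene.

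A mean per group was fitted over all 10 arrays with limma 3.58.1 (R 4.3.3), so that the groups shared 1 estimate of the spread with 6 residual degrees of freedom. Contrasts were tested with eBayes, two-sided, and p-values were adjusted by Benjamini-Hochberg over the 23099 probe sets at a threshold of 0.05. The fit was tested on simulated data. A gene is without overlap where both knockout values lie on one side of both wild-type values. Named are Pparg, the 15 genes of smallest p in each direction (without predicted models named Gm, Rik or LOC and small RNAs), up to 5 genes of smallest p in each of 43 gene lists (1235 of 1374 entries matched), the members of 4 families and textbook PPAR targets. Others were named after their values were seen: 1810065E05Rik, Dmbt1, Pigr, Duoxa2, Cyba, Slc7a11, Hsd3b3, Arl14, Adhfe1, Clca4b, Atp12a, Muc2, Agr2, Clca1, Zg16, the genes separated in all 10 arrays and the cell markers with values. The members and lists were chosen with earlier results of these data known.

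Alternatives changed the scaling, the filter on dim probe sets, the arrays in the fit, the block, the spread model and the probe sets tested, and left out each array in turn. No array pair was identical. Replicate numbers did not pair animals across genotypes: their deviations correlated at -0.050 between groups under vehicle. Promoter windows came from RefSeq tables on GRCm38.p6.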

Additional observations from a re-analysis of the deposited data

Results flagged for a closer look

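At 3 of the genes picked by the naming rule the knockout and wild-type arrays lay apart without overlap in both treatments, but in opposite directions. Zcchc10 was higher in knockout by 0.69 under vehicle and differed by -0.19 under rosiglitazone, a change of -0.89 ± 0.19 (SE). Krt14, a keratin of basal squamous cells that was dim here, differed by 0.24 and -0.38, a change of -0.62 ± 0.20. Snap25, a dim gene of synaptic vesicle release, differed by 0.21 and -0.20, a change of -0.41 ± 0.20. In limma the adjusted p of each change was 0.9999. Each change also mixes the drug with added animals, since mice 45 and 48 have no vehicle array. Over all genes 136 (0.723%) had such a pattern.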

How the results depend on the processing

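Under vehicle, the 0 called probe sets became 1 (Mt1) after centring each array on its median, repeating quantile normalization, keeping bright probe sets only or fitting the donor as a random block. They became 2 with a mean-variance trend, 4 with the compared groups' arrays alone, 6 with the 4 mice that have both treatments and 3 with the replicate block, a pairing the labels do not support. Leaving out 1 array at a time gave 0 to 6 calls (6 without the rosiglitazone array of wild-type mouse 48) and 648 to 2296 probe sets at an unadjusted p under 0.05 (648 without vehicle mouse 47, 720 without 42 and 2296 without 44). Bright probe sets alone gave 562. The 5 calls under rosiglitazone became 1 after repeating quantile normalization, with the compared groups' arrays alone, without mouse 46 and with all probe sets tested, 16 with the 4 mice, 13 with the replicate block and 1 to 23 with 1 array left out. The change between treatments had 0 calls in each of the 19 alternatives run for it, which leave out the fit on the compared groups' arrays alone, since it uses all 4 groups. The cause was not tested, and an arm left with 1 array is assumed to vary like the other groups.

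Of 2042 gene differences under an alternative 24 turned in sign, in 13 genes with a main adjusted p of 0.87 or more. With the donor block Pparg became -0.11 and Angptl4 0.33. Repeating quantile normalization made Pdk4 -0.0047, Fabp1 -0.027 and Cd36 -0.013. Without mouse 46, Angptl4 became 0.013, Cd36 -0.13, Muc2 0.0068, Agr2 0.039 and Clca1 0.25. With 1 array left out, Ppara ran from -0.27 to 0.071, Ppard from -0.012 to 0.21, Gsdmd from -0.31 to 0.17, Cyp2c66 from -1.21 to 0.56, Pdk4 from -0.070 to 0.29, Angptl4 from -0.56 to 0.013, Acaa1b from -0.11 to 0.91, Fabp1 from -0.14 to 0.36, Cd36 from -0.13 to 0.43, Muc2 from -1.89 to 0.0068, Agr2 from -2.98 to 0.039 and Clca1 from -2.84 to 0.25. List medians turned in sign in 68 of 853 settings. Medians of oxidative phosphorylation, fatty acid oxidation, colonocyte and defence genes stayed below 0 in all 20 alternatives. So did others, among them those of PPAR target, peroxisome, cholesterol synthesis and cell cycle genes. Many alternatives, such as leaving out a rosiglitazone array or changing the spread model, leave a gene's vehicle difference unchanged. In those a sign could not turn, so the counts of settings overstate the stability.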
